A study of Mus musculus with 8 samples.

Results

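The genes described here are 38 genes of autophagy, sorted by the step at which their proteins act, from initiation through membrane growth and protein conjugation to cargo receptors. A gene was taken when its name stood as a row name of the deposited table. By that rule 37 of the 38 genes were found among 38918 rows, and 35 of the 37 had at least 1 CPM (exon reads of a gene scaled to a common library depth) in either library. RNA came from BMiFLT3 (15-3) cells, pro-B cells of a mouse B-cell precursor acute lymphoblastic leukaemia. The cells overexpressed, from retroviral constructs, either Klf2, a zinc-finger transcription factor, or, as the control, BFP (blue fluorescent protein). Per construct, 4 sequencing lanes were deposited as samples, and these were summed and counted as 1 library. With 1 library per construct in 1 cell line, nothing below was checked in replicates, so that no test across samples could be made. BFP stands in the column names of both libraries, so the Klf2 construct may carry it too. The labels name 2 library kits without assigning them, so kit and construct cannot be told apart.

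Autophagy encloses cytoplasm in a membrane sac that closes and fuses with a lysosome, where the contents are degraded. The ULK1 kinase complex starts the process, and a class III PI3-kinase complex built on Beclin 1 then marks the growing membrane with a lipid that WIPI proteins bind. ATG9A and ATG2 proteins supply lipid. Through enzymes related to those of ubiquitin transfer, small ATG8 proteins of the LC3 and GABARAP kind are attached to the membrane, where receptors such as p62 dock with their cargo. Starvation and low mTORC1 activity start autophagy, and TFEB-family and FOXO transcription factors are known to raise expression of many of its genes.

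The Klf2 library held 30835450 exon reads and the BFP library 30133978. Klf2 itself was at 113 CPM in the Klf2 library and at 10.1 CPM in the BFP library, a ratio of 11.1 (9.93 to 12.6). Every ratio is the Klf2 library over the BFP library, with an exact 95% interval that covers counting error only. Of 16 markers of B-cell progenitors 15 were found by name and 12 had at least 1 CPM, with a summed level of 5253 CPM in the Klf2 library and 4854 CPM in the BFP library, whereas Rag1, Rag2 and Dntt were below the floor. None of 8 T-cell markers reached 1 CPM. Among 10 myeloid markers Csf1r and Cd68 did, and the list summed to 10.9 CPM in the Klf2 library and 12.9 CPM in the BFP library. Of 8 erythroid markers only Hbb-bt reached 1 CPM, at 41.3 CPM in the Klf2 library and 85.9 CPM in the BFP library, with 22% of its reads uniquely placed, and Hba-a1 had no read. The part of these markers in the results below was not tested. In bulk RNA, fewer cells with a transcript and less transcript per cell cannot be told apart.

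Most autophagy genes were slightly lower in the Klf2 library, and few were much lower. Of the 35 measured members, 3 were at least 2-fold lower with an interval below 1, namely Calcoco1, Map1lc3a and Atg16l2, and none was at least 2-fold higher. Over all 10850 measured genes the shares were 5.67% lower and 2.45% higher, so the 3 lower members (8.57%) are near the background. At a limit of 1.5-fold, 8 members (22.9%) were lower and none was higher, against 13.9% and 10.2% of all measured genes. The other 5 of these 8 were Ulk2, Atg9a, Map1lc3b, Sqstm1 and Atg4c. Counting intervals alone, 21 members lay below 1 and 5 above, against 37.3% and 37.1% of all measured genes, and 9 intervals held 1. On uniquely placed reads alone, 3 members were at least 2-fold lower and none higher, against 5.83% and 2.36% of all measured genes, and on junction reads 4 were lower and none higher, against 6.47% and 2.38%. The median log2 ratio over the members was -0.26, a ratio of 0.834, where the median over all measured genes was -0.01.

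Over all genes the median ratio differed by expression level. Among the 8682 measured genes within the members' own range of mean CPM, the median log2 ratio was -0.01 and 12.6% were at least 1.5-fold lower. Sorted into 5 equal groups by mean CPM, the measured genes had medians of -0.20, -0.13, -0.03, 0.06 and 0.17 from the lowest to the highest group, and these groups held 4, 4, 11, 10 and 6 members.

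**Figure D1:**
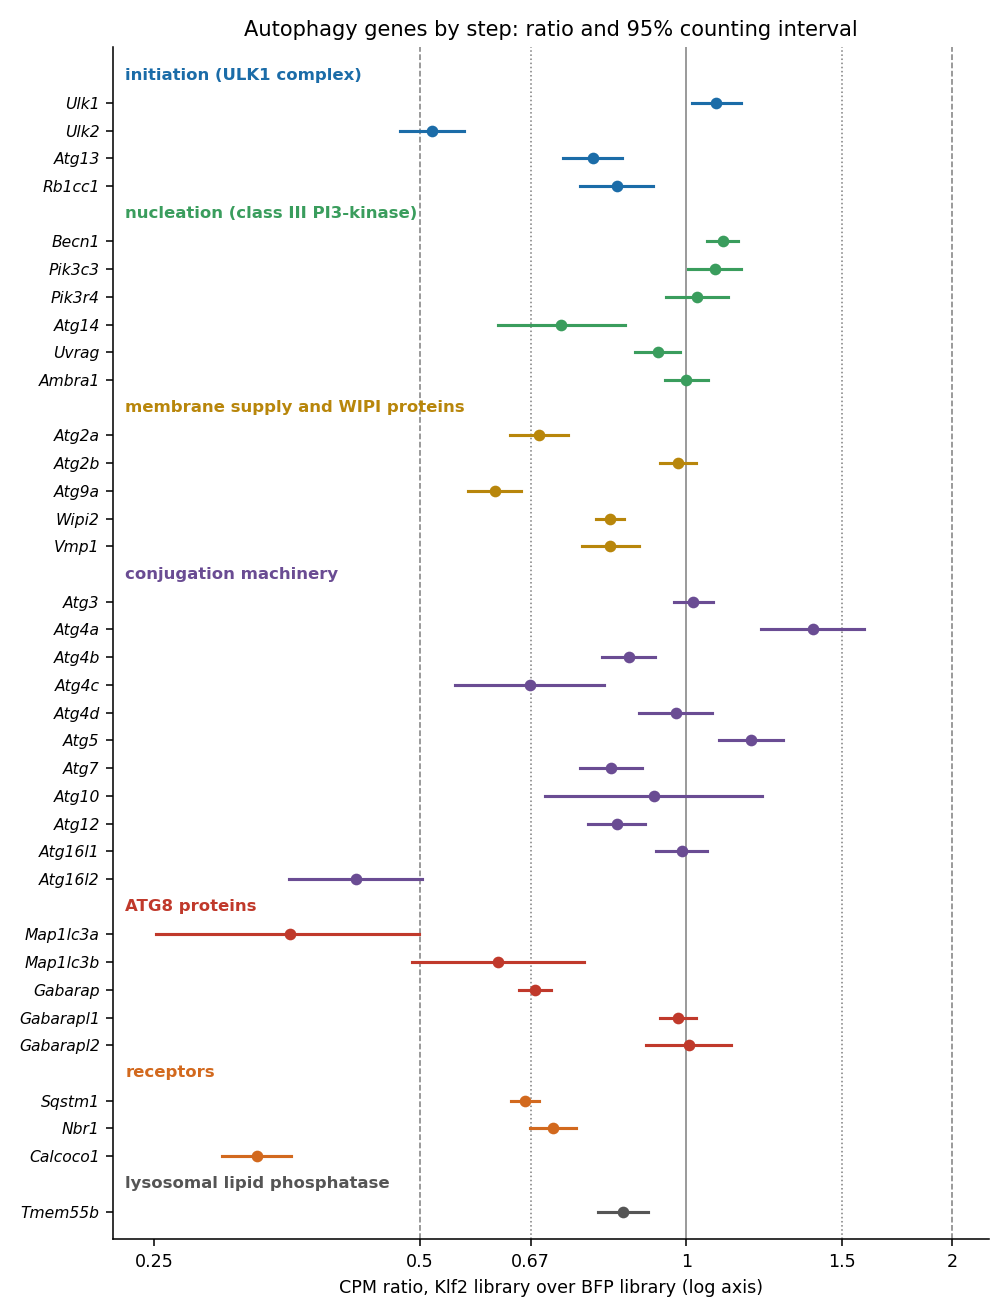
Ratio of CPM in the Klf2 library over the BFP library (x axis, log scale) for the 35 measured autophagy genes, grouped by step; points are ratios and bars exact 95% counting intervals. Dotted lines mark 1.5-fold and dashed lines 2-fold; Calcoco1, Map1lc3a and Atg16l2 lie left of 0.5, and no gene reaches 1.5.

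Calcoco1, Atg16l2 and Ulk2 were the 3 members nearest to or past the 2-fold limit for which a RefSeq promoter sequence was at hand, and their promoters are shown for the KLF-type element that Krüppel-like factors are known to bind. Each runs from 250 bases before to 50 bases after the transcription start, on the minus strand of GRCm38.p6: Calcoco1 at chr15:102722129-102722428, Atg16l2 at chr7:101302039-101302338 and Ulk2 at chr11:61855043-61855342. Capitals mark the letters CACCC, the longer CACACCC that contains them, or their reverse complement.
Calcoco1: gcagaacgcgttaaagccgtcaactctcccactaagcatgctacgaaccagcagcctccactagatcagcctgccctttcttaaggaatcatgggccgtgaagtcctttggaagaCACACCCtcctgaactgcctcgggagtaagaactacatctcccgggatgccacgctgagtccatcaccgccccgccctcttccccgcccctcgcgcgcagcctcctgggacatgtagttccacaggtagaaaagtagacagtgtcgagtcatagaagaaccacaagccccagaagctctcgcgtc
Atg16l2: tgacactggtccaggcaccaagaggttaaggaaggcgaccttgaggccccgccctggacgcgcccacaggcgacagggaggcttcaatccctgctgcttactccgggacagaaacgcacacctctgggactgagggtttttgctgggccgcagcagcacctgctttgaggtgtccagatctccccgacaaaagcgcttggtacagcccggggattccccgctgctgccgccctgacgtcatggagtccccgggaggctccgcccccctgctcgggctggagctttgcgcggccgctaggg
Ulk2: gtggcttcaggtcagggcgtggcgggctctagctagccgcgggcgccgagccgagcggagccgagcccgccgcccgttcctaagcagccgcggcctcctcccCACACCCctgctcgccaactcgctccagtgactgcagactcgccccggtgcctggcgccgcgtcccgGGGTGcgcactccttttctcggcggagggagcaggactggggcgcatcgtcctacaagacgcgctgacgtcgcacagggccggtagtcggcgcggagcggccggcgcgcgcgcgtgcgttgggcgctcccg
CACACCC begins at position -135 from the start in Calcoco1 and at -148 in Ulk2, and neither CACCC nor CACACCC is in the Atg16l2 window, where the deposited gene start lies 163 bases from the RefSeq start. Over both strands, 5 of 33 promoters of 28 measured members held CACACCC (15.2%). Of all 32851 promoters in the table, taken without regard to expression, 7.95% did. Besides Calcoco1 and Ulk2, the carriers were Atg4d, Uvrag and Vmp1, with ratios of 0.973, 0.928 and 0.820, none of them 1.5-fold lower. Of 7 members at least 1.5-fold lower with a promoter sequence, 2 held CACACCC. Shorter and commoner, CACCC was in 21 of the 33 (63.6%), against 57.5% of all. CACGTG, the core of the element bound by TFEB, was in 4 of the 33 (12.1%), those of Atg14, Atg3, Atg5 and Atg7, against 7.15% of all. None of the 33 held TGTTTAC, a FOXO-type element found in 3.65% of all. A match of letters is a description and shows no binding.

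In the ULK1 complex, Ulk2 was lower while Ulk1 was not. Ulk2, a kinase that acts in parallel with ULK1 (chromosome 11, 61775649 to 61855073, mm10), had 196, 223, 222 and 216 exon reads in the 4 Klf2 lanes, against 437, 460, 390 and 441 in the 4 BFP lanes. The lanes of the libraries did not overlap. Its ratio was 0.516 (0.475 to 0.560), just short of 2-fold, and it passed that limit at 0.485 with total-read scaling, at 0.494 without lane 3 and at 0.428 (0.369 to 0.496) on reads across exon junctions. Ulk1, the kinase that mTORC1 inhibits, was at 65.7 CPM in the Klf2 library and 60.8 CPM in the BFP library, a ratio of 1.08 (1.01 to 1.15). The scaffold genes Atg13 and Rb1cc1, whose products hold the complex together, had ratios of 0.784 (0.726 to 0.846) and 0.834 (0.758 to 0.917). Atg101, a partner of ATG13, was not found by name; its older name in RefSeq, 9430023L20Rik, has a row with 731 reads in the Klf2 library against 1025 in the BFP library, a ratio of 0.742 (0.674 to 0.817), which is not counted among the members.

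Genes of the class III PI3-kinase complex were close to equal in the libraries. Of 6 genes, 2 had intervals above 1 (33.3%), 2 below (33.3%) and 2 holding 1. Over all measured genes 37.1% lay above and 37.3% below, so these counts are near the background. The median log2 ratio of 0.02 was the highest of any step. The catalytic subunit gene Pik3c3 had a ratio of 1.08 (1.01 to 1.15), and Pik3r4, for the regulatory subunit VPS15, 1.03 (0.948 to 1.11). Becn1 (Beclin 1) was at 165 CPM in the Klf2 library and 150 CPM in the BFP library, a ratio of 1.10 (1.06 to 1.15). Only 28.4% of Becn1 reads were uniquely placed, 43.9% of its annotated exon bases are shared with Cntd1, and on uniquely placed reads the ratio was 1.03 (0.956 to 1.11). Atg14, the subunit that directs the complex to autophagy, was the lowest of the 6, at 8.37 CPM in the Klf2 library and 11.6 CPM in the BFP library, a ratio of 0.723 (0.612 to 0.852). Uvrag, its counterpart in endosomal traffic, had a ratio of 0.928 (0.875 to 0.985), which was 1.10 with introns included. Ambra1, a Beclin 1 partner, was at 78.5 CPM in both libraries.

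Among genes of membrane supply, Atg9a and Atg2a were lower and Atg2b was not. Atg9a encodes the membrane-spanning scramblase carried by autophagy vesicles (chromosome 1, 75180866 to 75191923). Its 4 lanes had 300, 353, 329 and 356 reads in the Klf2 library, against 570, 555, 575 and 593 in the BFP library, a ratio of 0.607 (0.567 to 0.650). In the GENCODE annotation 31.8% of its exon bases are shared with Gm29253. Of the lipid-transfer proteins, Atg2a had a ratio of 0.681 (0.632 to 0.735) and its paralogue Atg2b of 0.979 (0.934 to 1.03), and these intervals do not overlap. Wipi2, which recruits the ATG16L1 complex, was at 182 CPM in the Klf2 library and 223 CPM in the BFP library, a ratio of 0.819 (0.791 to 0.849). The other member of that family listed, Wipi1, had no read in the Klf2 library and 2 reads in the BFP library. It was below the floor of 1 CPM. Vmp1, an endoplasmic reticulum scramblase, had a ratio of 0.820 (0.761 to 0.884).

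The conjugation genes ranged from 0.423 to 1.39, with a median log2 ratio of -0.12 over 11 genes. Atg16l2, a paralogue of ATG16L1 whose part in autophagy is less settled (chromosome 7, 101289392 to 101302251), had 47, 49, 44 and 48 reads in the Klf2 lanes and 97, 117, 133 and 115 in the BFP lanes. Every Klf2 lane was below every BFP lane, at a ratio of 0.423 (0.355 to 0.503). Atg16l1, which carries the conjugate to the membrane, was at 58.0 CPM in the Klf2 library and 58.7 CPM in the BFP library, a ratio of 0.989 (0.925 to 1.06). The intervals of this pair of paralogues do not overlap either. The ligase partners Atg5 and Atg12 lay on opposite sides of 1, at 1.18 (1.09 to 1.29) and 0.834 (0.774 to 0.899). Atg7, the activating enzyme of both conjugation pathways, had a ratio of 0.823 (0.759 to 0.892). For the transfer enzymes, Atg3 had a ratio of 1.02 (0.968 to 1.07) and Atg10 of 0.919 (0.693 to 1.22), Atg10 from only 98 reads in the Klf2 library and 111 in the BFP library. The value of Atg10 changed with the reads counted, to 0.550 (0.334 to 0.887) on junction reads and to 1.47 with introns included.

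The ATG4 proteases, which prepare ATG8 proteins for conjugation and release them again, differed among themselves in direction. Atg4c had 44, 54, 37 and 39 reads in the Klf2 lanes against 66, 68, 67 and 71 in the BFP lanes, a ratio of 0.666 (0.547 to 0.808). Atg4b, for the protease known as most active on LC3, had a ratio of 0.861 (0.804 to 0.922) and Atg4d of 0.973 (0.885 to 1.07). Atg4a had the highest ratio of all members, 1.39 (1.22 to 1.59), with 128, 112, 127 and 151 reads in the Klf2 lanes against 96, 100, 104 and 88 in the BFP lanes. Only 34.5% of Atg4a reads were uniquely placed. On those reads alone its ratio was 1.36 (1.08 to 1.71), and on reads across exon junctions it was 1.0 (0.789 to 1.27).

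Of the 5 ATG8 genes, 3 had intervals below 1, among them the most abundant, and 2 had intervals that held 1, where 37.3% of all measured genes had intervals below 1. By deposited RPKM (reads scaled by exon length and by total reads), which allows genes to be compared, Gabarap led all members, at 57.2 to 59.8 RPKM in the Klf2 lanes and 90.5 to 94.6 RPKM in the BFP lanes. Its CPM ratio was 0.674 (0.648 to 0.702), short of the 1.5-fold limit. Among the ATG8 genes Gabarapl1 followed, at 52.6 to 54.9 RPKM in the Klf2 lanes and 57.1 to 61.0 RPKM in the BFP lanes. Its CPM ratio was 0.979 (0.935 to 1.03), and 28.3% of its annotated exon bases are shared with 1700101I11Rik. Of the summed RPKM of the 5 genes, Gabarap made up 48.0% in the Klf2 library and 56.5% in the BFP library, and Gabarapl1 44.2% in the Klf2 library and 35.8% in the BFP library. Gabarapl2 had a CPM ratio of 1.01 (0.902 to 1.12) on all reads. With 30.0% of its reads uniquely placed, it stood at 1.23 on those alone, where the lower bound of the interval lies just above 1.

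The LC3 genes were counted at low levels. Map1lc3a, for LC3A (chromosome 2, 155276297 to 155278073), had 11, 11, 14 and 12 reads in the Klf2 lanes and 37, 32, 42 and 29 in the BFP lanes. The lanes did not overlap, and the ratio was 0.357 (0.251 to 0.498), from 48 reads against 140. Map1lc3b, for LC3B, the usual protein marker of autophagosomes, had 129 reads in the Klf2 library and 219 in the BFP library, a ratio of 0.613 (0.489 to 0.765). For Map1lc3b 24.7% of reads were uniquely placed, and 93.8% of its reads in the Klf2 library and 95.4% in the BFP library crossed an exon junction. Over all genes that share was 22.4% in the Klf2 library and 21.9% in the BFP library. Its deposited level of 0.509 to 0.809 RPKM in the Klf2 lanes and 0.891 to 1.61 RPKM in the BFP lanes is therefore uncertain.

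The 3 measured receptor genes had intervals below 1, as did 37.3% of all measured genes, and Calcoco1 and Sqstm1 were at least 1.5-fold lower, as were 13.9%. Calcoco1, a receptor for endoplasmic reticulum and Golgi membranes (chromosome 15, 102706779 to 102722178), had 166, 183, 162 and 144 reads in the Klf2 lanes against 536, 509, 515 and 526 in the BFP lanes. No lane of the Klf2 library reached any BFP lane. At 21.9 CPM in the Klf2 library and 67.1 CPM in the BFP library, its ratio of 0.327 (0.299 to 0.357) was the lowest among measured members, and on junction reads it was 0.321 (0.268 to 0.382). The authors' deposited table gives Calcoco1 a signed fold of -3.25, that is, lower in the Klf2 group.

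Sqstm1, which encodes p62, a receptor for ubiquitin-tagged cargo (chromosome 11, 50199366 to 50210827), had 1183, 1152, 1180 and 1185 reads in the Klf2 lanes and 1884, 1837, 1848 and 1868 in the BFP lanes. Its ratio was 0.658 (0.634 to 0.682), and 17.3% of its annotated exon bases are shared with Mrnip. Nbr1, a related receptor that acts with p62, had 479, 477, 446 and 481 reads in the Klf2 lanes and 705, 692, 674 and 700 in the BFP lanes, a ratio of 0.707 (0.667 to 0.750). Neither Sqstm1 nor Nbr1 had overlapping lanes. Optn, for the mitophagy receptor optineurin, had 5 reads in the Klf2 library and 18 in the BFP library and was below the floor. Tmem55b, a lysosomal phosphoinositide phosphatase that positions lysosomes rather than building autophagosomes, had a ratio of 0.848 (0.795 to 0.905).

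**Figure D2:**
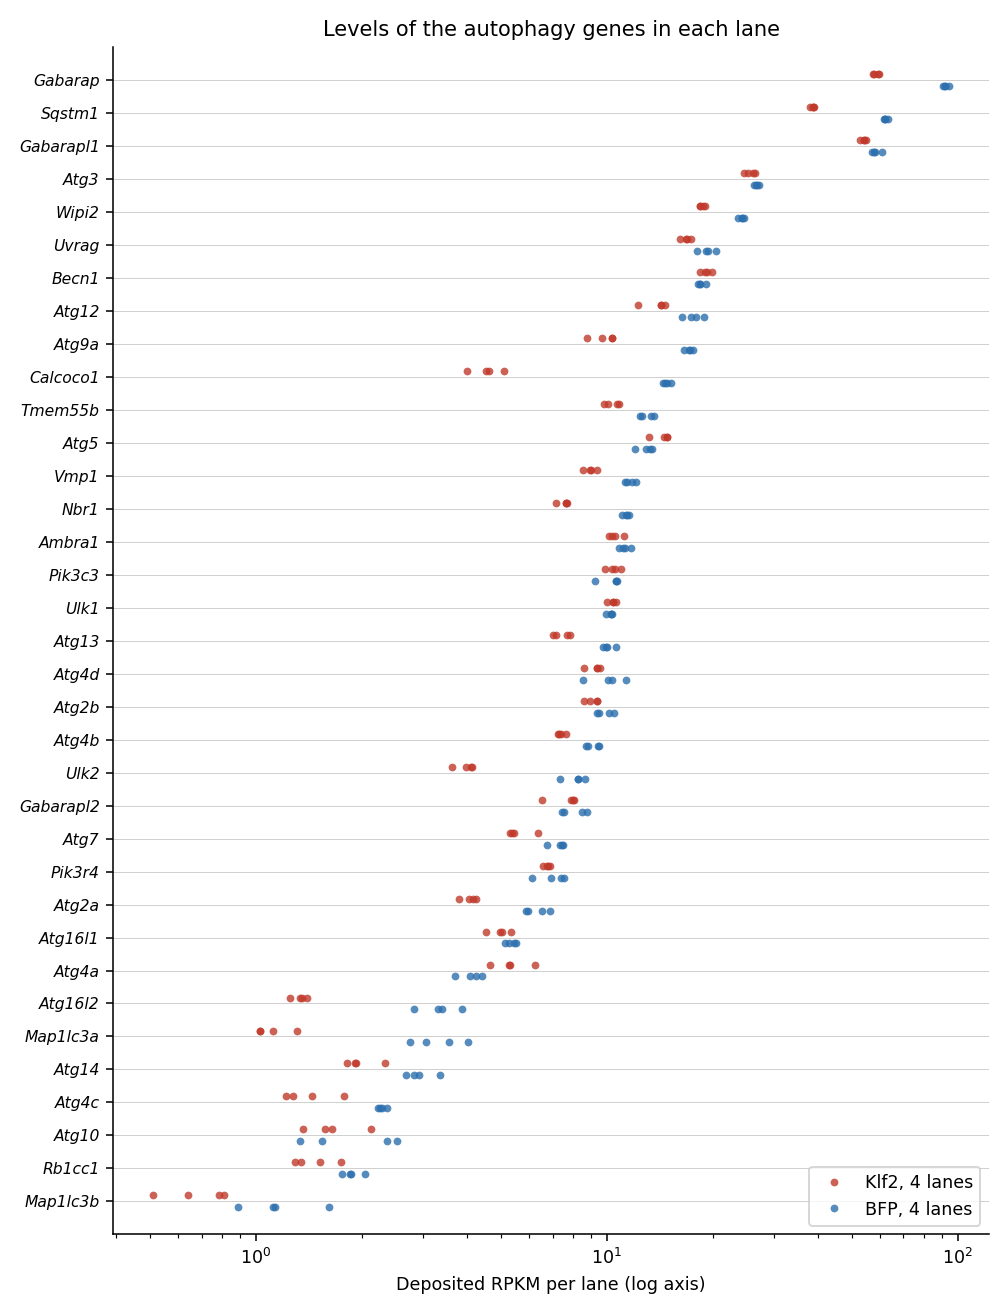
Deposited RPKM (x axis, log scale) of the 35 measured autophagy genes in each of the 4 Klf2 lanes (upper, red) and 4 BFP lanes (lower, blue), ordered by mean RPKM in BFP. Lanes of a library lie close together for most genes. They spread more for genes with few reads, such as Atg10 (1.33 to 2.52 RPKM in the BFP lanes) and Map1lc3b (0.891 to 1.61). Sqstm1 stands above Gabarapl1 in the BFP lanes and below it in the Klf2 lanes.

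Set side by side by length-scaled level, Gabarap, Gabarapl1 and Sqstm1 were the leading members in both libraries, and the order of the last pair differed. Sqstm1 was at 37.9 to 38.8 RPKM in the Klf2 lanes and at 61.6 to 63.4 RPKM in the BFP lanes. It thus lay below Gabarapl1 in every Klf2 lane and above it in every BFP lane. In deposited RPKM, which is scaled by total reads, 22 of the 35 members had all Klf2 lanes below all BFP lanes and 1, Atg4a, had all above, while 12 overlapped. Over all measured genes the shares were 37.9% below and 26.5% above. Lanes of a library are repeat readings of it, so a gap between lanes says nothing of variation between cultures. Of the 35 members, 7 had under 90% of their reads uniquely placed, so that copies elsewhere in the genome could have taken or added reads. GENCODE exons of another gene cover at least 10% of the exon bases of 7 members. These are Becn1, Atg9a, Gabarapl1, Tmem55b, Atg4d, Uvrag and Sqstm1. Their reads may not be separated, since the use of strand in counting is not stated.

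**Figure D3:**
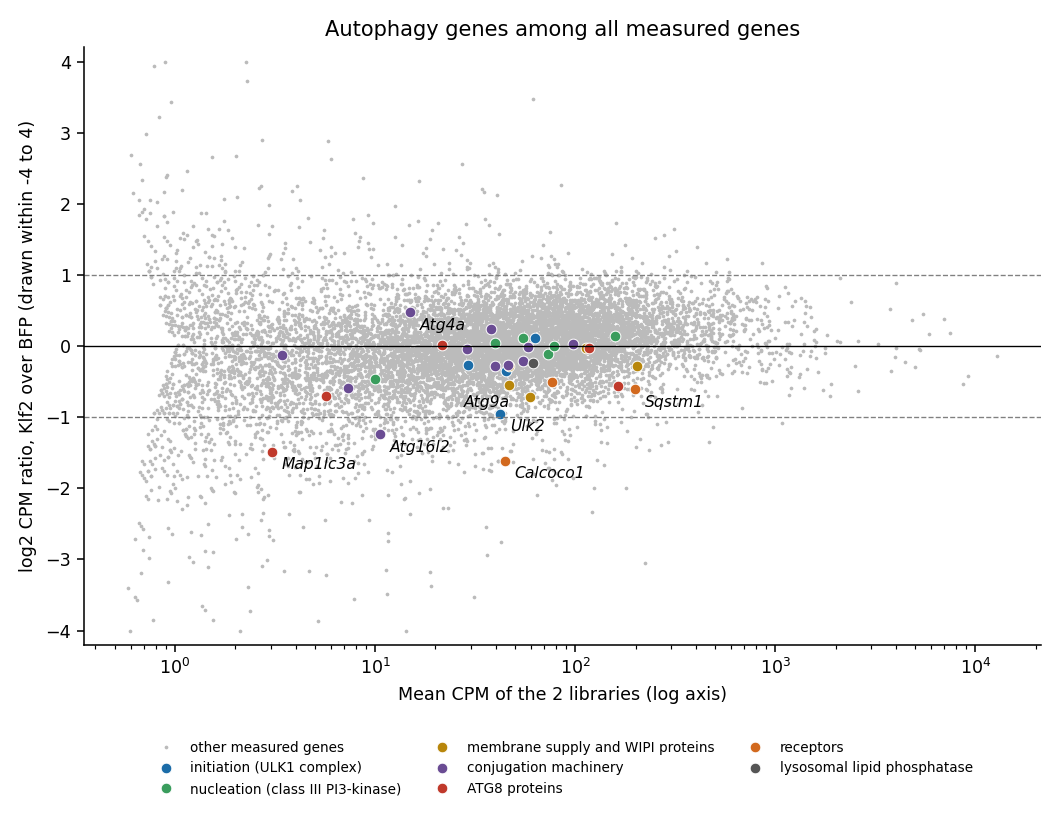
Log2 ratio of CPM in the Klf2 library over the BFP library (y axis) against the mean CPM of the 2 libraries (x axis, log scale) for 10850 measured genes in grey and the 35 autophagy genes in colour by step. Dashed lines mark 2-fold; most members lie below 0 within the main band of genes, and Calcoco1 lies well below it.

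Other genes of the pathway lay below 1 more often than above it. Like the members, these lists were chosen with earlier results of these data known, so their shares are no independent check. Of 95 further genes in 5 lists, 92 were found by name and 85 were measured. At least 2-fold lower were 9 (10.6%) and at least 2-fold higher none, against 5.67% and 2.45% of all measured genes, and the median log2 ratio was -0.15. At 1.5-fold, 17 (20.0%) were lower and none higher, against 13.9% and 10.2%. Among 18 other selective receptors 4 were at least 2-fold lower, against the same 5.67%, a list whose median log2 ratio was -0.21. Bnip3 and Bnip3l, mitophagy receptors known to be induced by hypoxia, were at 121 and 44.6 CPM in the Klf2 library and at 298 and 125 CPM in the BFP library. Their ratios were 0.406 (0.390 to 0.422) and 0.358 (0.336 to 0.381), with 48.3% of Bnip3l reads uniquely placed. Receptors of endoplasmic reticulum turnover were the remaining 2: Tex264 had a ratio of 0.480 (0.442 to 0.521), and Ccpg1, with only 8.65% of its reads uniquely placed, of 0.218 (0.169 to 0.277). In this list 12 intervals lay below 1 (66.7%) and 4 above (22.2%), against 37.3% and 37.1% of all measured genes. Not every mitophagy receptor was lower: Fundc1 had a ratio of 0.996 (0.892 to 1.11) and Phb2, the highest of the list, of 1.38 (1.34 to 1.41). Both were named after their values were seen.

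Among 15 other core and regulatory genes 4 were at least 2-fold lower, against 5.67% of all measured genes, with a list median of -0.38. Trp53inp1, a p53-induced protein that binds ATG8 proteins, had a ratio of 0.271 (0.252 to 0.291), and its relative Trp53inp2 of 0.477 (0.429 to 0.530). Dram2, a lysosomal membrane protein, was at 7.36 CPM in the Klf2 library and 14.9 CPM in the BFP library. Tecpr1, which tethers autophagosomes to lysosomes and also stands in the fusion list, was at 23.9 CPM in the Klf2 library and 74.1 CPM in the BFP library, a ratio of 0.323 (0.297 to 0.351). It was the only gene past 2-fold among 14 fusion genes (7.14%), near the same 5.67%, and their median was -0.13.

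Of 8 measured transcription factors of autophagy, Mitf alone (12.5%) was at least 2-fold lower, against 5.67% of all measured genes. Mitf had 9 reads in the Klf2 library against 81 in the BFP library. Its mean level of 1.45 CPM put it in the lowest of the 5 groups by mean CPM, where 16.1% were at least 2-fold lower. The list had the lowest median of the 5 lists, -0.40. At least 1.5-fold lower were 3 of the 8 (37.5%), against 13.9% of all measured genes. They were Mitf, Foxo3 at 0.631 (0.596 to 0.669) and Foxo4 at 0.585 (0.529 to 0.647). Of the TFEB relatives, Tfe3 had a ratio of 0.683 (0.626 to 0.744) and Tfeb of 1.0 (0.927 to 1.09). These genes other than Mitf were named after their values were seen. None of 32 genes of nutrient sensing by mTORC1 and AMPK passed 2-fold, against 5.67% lower and 2.45% higher of all measured genes. Their median was -0.08, with 14 intervals below 1 (43.8%) and 9 above (28.1%). Over all measured genes those shares were 37.3% and 37.1%. At least 1.5-fold lower were 4 of the 32 (12.5%), close to the 13.9% of all measured genes: Rragd at 0.515 (0.438 to 0.604), Prkaa2 at 0.620 (0.553 to 0.695), Flcn at 0.643 and Sesn2 at 0.655. Rragd and Flcn act at the lysosome in amino acid signalling, Prkaa2 is a catalytic AMPK subunit, and Sesn2 inhibits mTORC1. Mtor, like these 4 named after its values were seen, was at 674 CPM in the Klf2 library and 528 CPM in the BFP library, a ratio of 1.28 (1.25 to 1.30).

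**Figure D4:**
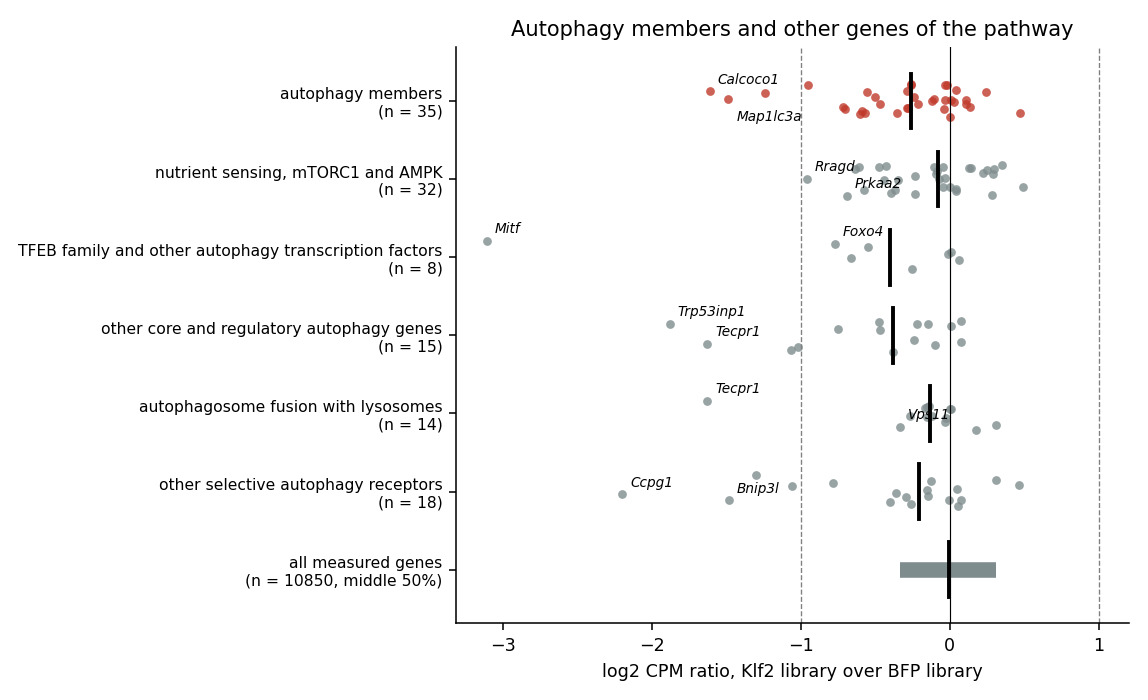
Log2 ratio of CPM in the Klf2 library over the BFP library (x axis) for each measured gene of the autophagy members and of 5 further lists; vertical bars are medians, and the lowest 2 genes of each list are named. The bottom row gives the median and middle 50% of all 10850 measured genes; list medians run from -0.40 to -0.08, and no gene reaches 2-fold higher.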

How the data were processed

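Poly(A) RNA was sequenced with Illumina chemistry, per the labels' protocols. The submitters' processing notes name CASAVA 1.8.2 and build mm10. Which aligner, counting program and gene models were used is not given in the sources used here. Per the file headers, the authors' counts per lane are all exon reads (the main values), uniquely placed exon reads, gene reads and junction reads. The authors' deposited RPKM and signed fold, a score, were used as given. Lane totals were 7682298 to 7741626 in Klf2 and 7506567 to 7588695 in BFP. Chi-square per degree of freedom between lanes was 1.28 in Klf2 and 1.30 in BFP over all genes, and 0.986 and 1.11 over the members. These lay under the limit of 1.5, so lanes were summed. Over all genes, lanes thus varied somewhat more than counting error, and the counting intervals of some genes may be too narrow. Libraries were scaled to CPM by the TMM method (edgeR 4.0.16, R 4.3.3), with factors of 0.969 for Klf2 and 1.03 for BFP. A zero count allows up to 0.100 CPM in Klf2 and 0.0965 CPM in BFP (3 reads, no molecular identifiers). Ratios carry Clopper-Pearson 95% intervals conditional on the summed reads. This rule was tested on simulated data that held counting error only, which cannot speak for variation between cultures, kits or libraries. All members are named, with Klf2 and pathway-list genes past 2-fold. The members and lists were chosen with earlier results of these data known. Promoters are RefSeq's, on GRCm38.p6, the assembly of mm10. Of 38 genes, 31 had an entry.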

Additional observations from a re-analysis of the deposited data

Results flagged for a closer look

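Gene reads outside exons entered the comparisons above only where introns were included, and were not compared there on their own. Scaled with the factors of the exon reads, these reads were at least 1.5-fold higher in the Klf2 library for 2 of 31 members with at least 1 CPM of them, and at least 1.5-fold lower for 8, against 11.6% and 15.4% of 10398 genes. For Atg7 there were 316 such reads in the Klf2 library and 188 in the BFP library, a ratio of 1.75 (1.46 to 2.11), while its exon reads had a ratio of 0.823. For Atg10 there were 441 in the Klf2 library and 277 in the BFP library, a ratio of 1.66 (1.42 to 1.93), while its junction reads had a ratio of 0.550 (0.334 to 0.887). GENCODE places 3 other genes over the span of Atg7 and 1 over that of Atg10, and their part in these reads was not tested. In Sqstm1 the reads outside exons were lower, 271 in the Klf2 library against 650 in the BFP library, a ratio of 0.434 (0.375 to 0.501).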

How the results depend on the processing

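No paired analysis was possible because lanes of the same number are readings of 1 library per construct, with no replicate to pair. Members at least 2-fold lower numbered 2 to 4 (6.45% to 11.4%) over the settings tried, where all genes gave 3.26% to 6.97%, and none was at least 2-fold higher in any. A floor of 10 CPM, which leaves out Map1lc3a, gave 2 (6.45%), against 3.26% of all genes. Ulk2 was added with total-read scaling, deposited RPKM, junction reads and without lane 3, and Optn with no floor. Members at least 1.5-fold lower numbered 7 to 9 when a lane was left out, 7 on uniquely placed reads, and 5 of 31 (16.1%) with a floor of 10 CPM, against 10.3% of all genes. They numbered 11 of 35 (31.4%) with total-read scaling, deposited RPKM and junction reads, against 17.5%, 17.7% and 13.0% of all genes. The members' median log2 ratio was between -0.26 and -0.23 when a lane was left out. With total-read scaling it was -0.35, where the median over all genes was -0.10, a difference of -0.25, against -0.26 with TMM. In the further lists, 1 gene was at least 1.5-fold higher on uniquely placed reads, and 1 when introns were included, against 0. On junction reads, an alternative chosen after seeing the data, 14 of 83 such genes were at least 2-fold lower, against 6.47% of all genes, and their median was -0.27, where that of all genes was near 0. Of 416 member ratios under these alternatives, 412 stayed on the same side of the 2-fold limit, and no gene past that limit changed direction. Below it, 25 ratios of 9 genes near 1 crossed 1; of these genes Uvrag alone had a reported interval that excludes 1. Atg10 alone moved by over 1.5-fold. Depth limits Map1lc3a, Atg10 and Map1lc3b, and no depth replaces a second library.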
